A study of Mus musculus with 3 samples.

Results

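Mature neutrophils of mouse brainstem with and without a grafted diffuse midline glioma were taken from 3 single-cell RNA libraries by a rule on 12 transcripts. Barcodes were kept from 500 unique molecular identifiers (UMIs, each standing for 1 captured transcript) and 300 genes upward, if mitochondrial UMIs did not pass 15%. The members were selected on measured transcript levels: a barcode was called a mature neutrophil where S100a8 and S100a9 together reached 100 per 10000 UMIs, the granule genes Ngp, Camp and Ltf stayed below 50 per 10000, the receptors Il1r2, Cxcr2 and Csf3r together gave at least 2 UMIs, and the precursor genes Elane, Mpo, Prtn3 and Ctsg stayed below 15 per 10000. The rule found 814 of 23699 kept barcodes, with 231 in tumour 1, 399 in tumour 2 and 184 in normal.

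Neutrophils are short-lived phagocytes that are made in bone marrow and released into blood. While they mature they shut down the genes of azurophil and secondary granules in turn, fill tertiary granules and gain Cxcr2, the receptor for chemokines such as Cxcl2 that draws them out of marrow and into inflamed tissue. Healthy brain tissue holds few of them, while tumours can recruit them, and neutrophils in tissue can switch on cytokine genes.

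Diffuse midline glioma (DMG) arises in the pons, thalamus or spinal cord of children, and DIPG4423 is a murine line of it. Tumour 1 and tumour 2 came from brainstem of untreated B6(Cg)-Tyrc-2J/J mice, 3 weeks after 100000 DIPG4423 cells had been placed in the brain at 6 weeks of age. Normal 1 came from brainstem of the same strain without tumour, and the age at which it was taken is not given separately. Both tumours come from 1 line, the mice were perfused with saline, and the tissue was ground, cleared of myelin with beads and freed of red cells by lysis, so blood cells that perfusion did not wash out can also be among the barcodes. The labels do not say how the mice relate, so p-values speak only of how these libraries vary.

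Below, the values of the tumour pair stand in the order tumour 1, tumour 2. The libraries held 12118, 10728 and 4354 barcodes and 151906460, 157114723 and 15035292 UMIs in tumour 1, tumour 2 and normal. Normal stood apart in its depth, with a median of 2429 UMIs per kept barcode against 9012 and 11443 in tumour, and 26.3% of its barcodes were over the mitochondrial limit, against 9.71% and 9.57% in tumour. Mature neutrophils differed less in depth, with medians of 2035 and 2589 UMIs in tumour against 2082 in normal and of 1015 and 1190 genes against 858. Their summed counts were 685989 and 1237837 UMIs in tumour against 413711 in normal. The deepest single members held 33024 and 22222 UMIs in tumour against 8113 in normal. Those 2 tumour barcodes lay near the alarmin limit, at 141 and 139 per 10000 UMIs. A sum weighs each barcode by its depth, so such barcodes count for more in the tumour sums than the medians show. The libraries shared 13 to 37 barcodes, none of them a mature neutrophil in both libraries of a pair. Scrublet marked 15, 15 and 9 of the mature neutrophils as doublets in tumour 1, tumour 2 and normal, and these were kept in the main values.

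Mature neutrophils made up 2.11% (exact Clopper-Pearson 95% interval 1.85 to 2.40%) and 4.14% (3.75 to 4.55%) of kept barcodes in tumour, against 5.88% (5.08 to 6.76%) in normal. Such intervals cover counting error only, and the 2 tumour libraries differed from each other by more than their intervals. No test was made, since an exact permutation of 2 libraries against 1 cannot give a p below 0.333. The share is of barcodes that survived dissociation, so it moves with every other cell type in the library.

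Among neutrophils and their precursors the mature stage held most barcodes in tumour and the smaller part in normal. Of mature, immature and precursor barcodes together, 83.7% (78.8 to 87.9%; 231 of 276) and 93.7% (90.9 to 95.8%; 399 of 426) were mature in tumour, against 30.5% (26.9 to 34.4%; 184 of 603) in normal. Immature neutrophils, which carry Ngp, Camp and Ltf above the limit, numbered 42 and 24 in tumour against 349 in normal. Barcodes with Elane, Mpo, Prtn3 or Ctsg above the limit, genes of marrow precursors, numbered 3 and 3 in tumour against 70 in normal.

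The genes that chose these barcodes differed in level within the gate, which is a description and is not read as a test result. S100a8 and S100a9, the alarmins that make up much of neutrophil cytosol, together had a median of 554 and 576 per 10000 UMIs in tumour against 2487 in normal, and a median of 0, 0 and 4.74 in microglia of tumour 1, tumour 2 and normal. The middle range of barcodes ran over 240.4 to 1008 and 296 to 1101 in tumour against 1772 to 3099 in normal, so the quartiles of tumour and normal did not overlap. S100a8 stood at 23288 and 36182 CPM in tumour against 120110.0 CPM in normal. S100a9 stood at 29935 and 40279 CPM in tumour against 116702 CPM in normal, where CPM is the count scaled by the total UMIs of the summed mature neutrophils. The 2 genes took 5.32% and 7.65% of all UMIs in tumour members against 23.7% in normal members. Cxcr2 stood at 1086 and 1702 CPM in tumour against 2422 CPM in normal. Csf3r, the receptor of granulocyte colony-stimulating factor, stood at 808 and 1551 CPM in tumour against 1228 CPM in normal. Il1r2, a decoy receptor for interleukin-1, stood at 1547 and 710.1 CPM in tumour against 261 CPM in normal. Ngp, Camp and Ltf together had a median of 0 in all libraries, but their sums were lower in tumour. Ngp stood at 175 and 65.4 CPM in tumour against 759 CPM in normal. Camp stood at 1.46 and 11.3 CPM in tumour against 222 CPM in normal, and Ltf at 13.1 and 5.66 CPM against 41.1 CPM. Elane, Mpo, Prtn3 and Ctsg stood at 0 to 11.3 CPM.

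**Figure D1:**
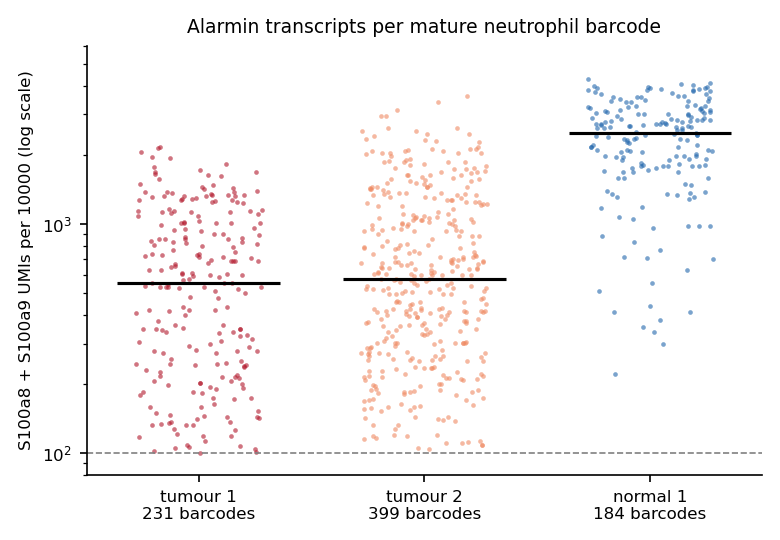
S100a8 and S100a9 UMIs per 10000 (log axis) in each of the 814 mature neutrophil barcodes, 231 in tumour 1, 399 in tumour 2 and 184 in normal, with the median as a black bar and the selection limit of 100 as a dashed line. Tumour barcodes spread down to the limit with medians of 554 and 576, while normal barcodes lie around 2487 with the lowest at 221.

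The alarmin limit cut through tumour barcodes and not through normal ones. Just inside it, at 100 to 150 per 10000, lay 29 and 23 tumour barcodes against 0 normal ones, and just outside it, at 50 to 100 with every other condition met, lay 33 and 40 against 0. Just inside the limit, Il1b stood at 1096 CPM in tumour 1 and 1328 CPM in tumour 2, and just outside at 1289 CPM in tumour 1 and 709 CPM in tumour 2. The limit on Ngp, Camp and Ltf lay nearer to the normal barcodes, with 7 and 3 tumour barcodes against 29 normal ones at 20 to 50 per 10000, and 6 and 4 against 15 at 50 to 100. At exactly 2 receptor UMIs lay 6 and 5 tumour barcodes against 14 normal ones, and 4 and 3 against 7 had 1.

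Neutrophil markers outside the rule were detected in all 3 libraries, so the name holds by its markers in tumour and in normal. Retnlg, a resistin-like secreted protein of neutrophils, stood at 11479.8 and 8031 CPM in tumour against 20435 CPM in normal and at 29.6, 19 and 954 CPM over all other barcodes of tumour 1, tumour 2 and normal. Itgam, the integrin chain CD11b, stood at 518 and 603 CPM in tumour against 679 CPM in normal. Hdc, which makes histamine, stood at 649 and 386 CPM in tumour against 566 CPM in normal. Clec4d, a lectin receptor of myeloid cells, stood at 468 and 523 CPM in tumour against 728 CPM in normal. G0s2, an inhibitor of lipid breakdown, stood at 698 and 319.9 CPM in tumour against 102 CPM in normal. Trem1, an activating receptor, stood at 437 and 241 CPM in tumour against 106 CPM in normal. Fcgr4, an IgG receptor, stood at 61.2 and 76.7 CPM in tumour against 128 CPM in normal. Hp, haptoglobin, stood at 1141 and 1030.0 CPM in tumour against 1233 CPM in normal. None of these 8 passed the test described next (Retnlg: log2 change -1.56, adjusted p = 0.0678, edgeR).

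Tumour was set against normal in the summed mature neutrophils with edgeR's quasi-likelihood test over 8558 genes, at a Benjamini-Hochberg adjusted p of 0.05. In all, 56 genes were higher in tumour, 0.654% of those tested, and 174 were lower, 2.03%, making 2.69% in either direction. Genes of the rule stayed in this fit and in the counts given from it. S100a8 and S100a9 are among the lower ones counted, though no rule gene is read as a result. With scaling by library size alone in place of TMM (trimmed mean of M values) the split was 228 higher and 104 lower, so 68.7% of calls were higher in place of 24.3%. That scaling moved the median log2 change of all genes to 0.66, against 0.18 with TMM, and values below are with TMM. Over 14 alternative settings the number of higher calls ran from 51 to 721 and that of lower calls from 104 to 733. The test rests on 1 residual degree of freedom from the tumour pair, and takes the spread of the single normal library to be the same. Of the 56 higher genes, 24 stood higher in mature neutrophils than in all other barcodes of both tumour libraries, and of the 174 lower genes 136 stood higher in mature neutrophils than in all other barcodes of normal.

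Egr1, an immediate early transcription factor, stood at 535 and 197 CPM in tumour against 0 CPM in normal, at least 50.5-fold higher against a floor of 3 counts over the normal members (adjusted p = 0.0199, edgeR), with 27.2-fold on tumour 2 alone. Hic1, a transcriptional repressor, stood at 58.3 and 90.5 CPM in tumour against 0 CPM in normal, at least 10.3-fold higher (adjusted p = 0.0293). Rgs1, which damps chemokine receptor signalling, stood at 136 and 196 CPM in tumour against 7.25 CPM in normal, a count ratio of 24, with a 95% interval of 8.15 to 117 (adjusted p = 0.0311). All 3 genes were at 0 to 3 counts in the normal members, so their ratios are bounds or have wide exact counting intervals.

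Igfbp6, which binds insulin-like growth factors, stood at 146 and 305 CPM in tumour against 4.83 CPM in normal, a count ratio of 51.3, with a 95% interval of 14.1 to 425 (adjusted p = 0.0299, edgeR) and of 30.2 on tumour 1 alone. Mrpl52, a mitochondrial ribosomal protein, stood at 325 and 536 CPM in tumour against 16.9 CPM in normal (log2 change 4.19, SE 0.72, adjusted p = 0.0243). The unnamed transcript 1700017B05Rik stood at 81.6 and 50.9 CPM in tumour against 2.42 CPM in normal, a count ratio of 25.6, with a 95% interval of 4.51 to 1019 (adjusted p = 0.0499), and its call was lost when barcodes were thinned to 1000 UMIs (adjusted p = 0.0599) or the alarmins left out of the totals (adjusted p = 0.0523). The other genes of the 10 largest rises, Cxcl2, Ccl4, Bcl2a1a and Ltc4s, are given with their lists.

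**Figure D2:**
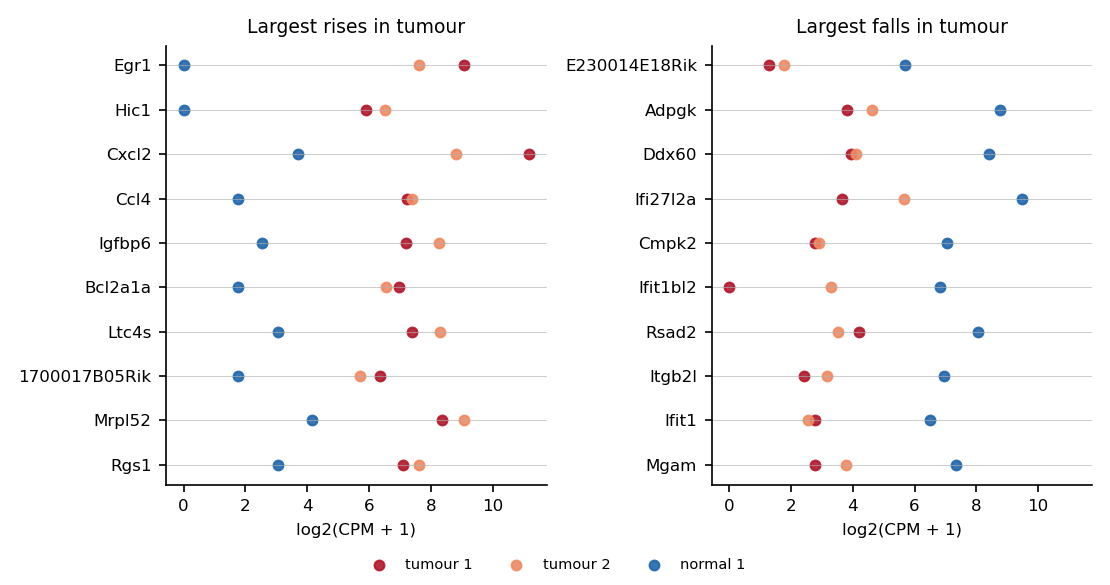
Level in log2(CPM + 1) of the 10 genes with the largest rise (left) and the 10 with the largest fall (right) in mature neutrophils, 1 point per library. Both tumour points lie on the same side of the normal point, which was a condition of the choice, and Egr1 and Hic1 are at 0 in normal.

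Among 18 tested cytokine and chemokine genes, 2 rose and none fell, with a median log2 change of 2.12, or 1.26 with the 3 genes at 0 in normal set to their bounds, beside 0.18 over all genes. Cxcl2, the neutrophil-attracting ligand of Cxcr2 (chromosome 5, 90903871 to 90905938, plus strand), stood at 2321 and 444 CPM in tumour against 12.1 CPM in normal (edgeR log2 change 6.30, SE 1.20, adjusted p = 0.0334). Tumour 1 lay well above tumour 2, and the change was 4.71 without tumour 1 and 6.93 without tumour 2. Ccl4, a chemokine that attracts monocytes and T cells, stood at 147 and 166 CPM in tumour against 2.42 CPM in normal, a count ratio of 65.8, with a 95% interval of 11.7 to 2608 (adjusted p = 0.0203), with like levels in both tumour libraries.

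Il1b, the precursor of the inflammatory cytokine interleukin-1 beta, stood at 3698 and 1796 CPM in tumour against 346 CPM in normal. Its change did not pass (edgeR log2 change 2.48, SE 0.58, adjusted p = 0.0542). It passed with library-size scaling (adjusted p = 0.0433), in members at 1500 to 3500 UMIs (3.1e-13), with doublets removed (4.0e-08) and without C1q and glioma UMIs (6.9e-09). All of these fits hold the same 2 tumour libraries and 1 normal library. Their smaller p-values therefore come without added replicates and are not stronger evidence. Ccl3, a chemokine encoded beside Ccl4, stood at 61.2 and 158 CPM in tumour against 9.67 CPM in normal (adjusted p = 0.0946). Ccl6, another chemokine, stood at 1042 and 1377 CPM in tumour against 2946 CPM in normal (log2 change -1.76, adjusted p = 0.063). Tumour was on the same side of normal in both libraries for each of these genes.

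At the level of single barcodes, thinned to 1000 UMIs each, Cxcl2 was carried by a large part of the mature neutrophils of tumour 1 and by few elsewhere. It was detected in 49.3% (42.6 to 56.1%) of tumour 1 and 8.59% (6.02 to 11.8%) of tumour 2 members, against 0.602% (0.0153 to 3.31%) of normal members. Unthinned, the shares were 58.9% and 13% against 0.543%, and in thinned microglia, which should carry little of it, 0.458% and 0.166% in tumour and 0% in normal. Il1b was detected in 79.8% and 62.1% of tumour members against 19.9% of normal members (unthinned 87% and 78.7% against 28.3%), and in microglia in 0.620% and 2.44% in tumour and 0.490% in normal. Ccl4 was detected in 8.52% and 4.55% of tumour members against 0.602% of normal members. At least 1 UMI of Cxcl2, Ccl3, Ccl4 or Il1b was found in 88.3% and 67.7% of tumour members against 21.7% of normal members, with medians of 5 and 1 UMIs against 0. In thinned microglia, which also express it, Ccl4 was found in 2.86% and 7.08% in tumour and 2.78% in normal, so the share in tumour 2 members was below that of microglia there. The thinned sets held 223 and 396 tumour members against 166 normal members, leaving out 8 and 3 against 18 shallower ones, with median depths of 2052 and 2609.5 against 2189.5 UMIs before thinning, and microglia had 5691 and 11546 against 1961.

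The promoter of Cxcl2 was read from RefSeq on GRCm38.p6 (chr5:90903748-90903867, plus strand), chosen because Cxcl2 is a chemokine gene that rose. Capitals mark GGGA, any 4 bases, CC, the core of the site for the inflammatory transcription factor NF-kappaB, searched on both strands in the 250 bases before each gene's start.

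Cxcl2: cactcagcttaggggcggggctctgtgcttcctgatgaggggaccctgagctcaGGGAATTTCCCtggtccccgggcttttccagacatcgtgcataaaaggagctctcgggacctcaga

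Here 2 overlapping matches start 97 and 96 bases before the gene's start. The same letters occur in 17.6% of 32851 promoters, so the match describes the sequence and says nothing of binding. No promoter of Ccl4 was at hand, so its sequence was not searched. Of 15 tested genes of the NF-kappaB response none passed the test (1 higher and none lower at an unadjusted p under 0.05), with a median log2 change of 0.43. Over all 8558 genes tested, 1930 had an unadjusted p under 0.05 (edgeR). Icam1, an adhesion molecule, stood at 59.8 and 46 CPM in tumour against 4.83 CPM in normal, a count ratio of 10.5, with a 95% interval of 2.84 to 88.2 that did not pass (adjusted p = 0.0787, edgeR). Ptgs2, an inducible prostaglandin synthase, stood at 81.6 and 20.2 CPM in tumour against 9.67 CPM in normal. Sod2, a mitochondrial superoxide dismutase, stood at 131 and 59.8 CPM in tumour against 31.4 CPM in normal. Bcl3, a nuclear regulator of NF-kappaB, stood at 30.6 and 46 CPM in tumour against 55.6 CPM in normal.

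Of 28 immediate early and stress genes 5 rose and none fell, with a median log2 change of 1.04. Besides Egr1, Ier3, a stress-induced early gene, stood at 730.3 and 455 CPM in tumour against 26.6 CPM in normal (edgeR log2 change 3.97, SE 0.64, adjusted p = 0.0213). Jun, a subunit of the AP-1 transcription factor, stood at 370.3 and 407 CPM in tumour against 41.1 CPM in normal (log2 change 2.76, SE 0.56, adjusted p = 0.0391). Hspa1a, a heat shock protein, stood at 74.3 and 35.5 CPM in tumour against 0 CPM in normal, at least 7.58-fold higher (adjusted p = 0.0464), or 4.90-fold on tumour 2 alone. Dusp2, a phosphatase that ends MAP kinase signalling, stood at 55.4 and 33.9 CPM in tumour against 0 CPM in normal, at least 6.16-fold higher (adjusted p = 0.047). The calls of Hspa1a and Dusp2 were lost at 1000 UMIs per barcode (adjusted p = 0.338 and 0.0856), and that of Dusp2 also with an alarmin limit of 10 (adjusted p = 0.0558). Not all early genes were higher: Fos, named here after its values were seen, stood at 483 and 212 CPM in tumour against 220.0 CPM in normal.

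Egr1 was detected in 36.8% and 9.34% of thinned tumour members against 0 of 166 normal members, which allows a share of barcodes with an Egr1 UMI at this depth of up to 1.81%. Jun was detected in 27.4% and 29.5% of tumour members against 4.22% of normal members, and Ier3 in 44.8% and 23% of tumour members against 1.81% of normal members. Tumour 1 held the larger share for Egr1, and both tumour libraries lay above normal for all 3 genes. In thinned microglia the shares were 13% and 5.67% in tumour and 2.12% in normal for Egr1, 34.7% and 23.2% in tumour and 22.4% in normal for Jun and 9.73% and 3.66% in tumour and 0.163% in normal for Ier3.

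In 20 survival and cell death genes, 2 rose and 1 fell, with a median log2 change of 0.24. Bcl2a1a, a pro-survival BCL2 relative of activated neutrophils, stood at 125 and 92.9 CPM in tumour against 2.42 CPM in normal, a count ratio of 43.2, with a 95% interval of 7.67 to 1716 (adjusted p = 0.025, edgeR), and its near-identical copy Bcl2a1b at 300.3 and 149 CPM in tumour against 16.9 CPM in normal (log2 change 3.21, adjusted p = 0.0495). Reads of these copies may be split between them by the counting, so they are not separate findings. The call of Bcl2a1b was lost with the alarmins left out of the totals (adjusted p = 0.0523). Fas, a death receptor, stood at 40.8 and 68.7 CPM in tumour against 189 CPM in normal (log2 change -2.23, adjusted p = 0.0499), a call lost with library-size scaling (adjusted p = 0.0678) and with the alarmins left out of the totals (adjusted p = 0.0524). Bid, which relays death receptor signals to mitochondria, stood at 14.6 and 25.9 CPM in tumour against 65.3 CPM in normal and did not pass (adjusted p = 0.0762).

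Among 12 lipid mediator genes 1 rose and none fell, with a median log2 change of 0.24. Ltc4s, which makes leukotriene C4, stood at 168 and 313 CPM in tumour against 7.25 CPM in normal, a count ratio of 36, with a 95% interval of 12.2 to 175 (adjusted p = 0.029, edgeR), with 23.1 on tumour 1 alone. It was detected in 12.6% and 21.2% of thinned tumour members against 0 of 166 normal members. Among thinned microglia it was found in 40.4% and 37.4% in tumour and 31.7% in normal, so microglia carried it in all libraries, and the part of microglial RNA in this rise was not tested. Ptgs1, a constitutive prostaglandin synthase, stood at 114 and 179 CPM in tumour against 19.3 CPM in normal (adjusted p = 0.0756). Alox5, which starts leukotriene synthesis, stood at 83.1 and 82.4 CPM in tumour against 159.5 CPM in normal (adjusted p = 0.105).

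Of 28 hypoxia and glycolysis genes 1 rose and 2 fell, with a median log2 change of 0.52. Mif, a secreted cytokine that is also a hypoxia target, stood at 738 and 460.5 CPM in tumour against 21.8 CPM in normal (edgeR log2 change 4.28, SE 0.66, adjusted p = 0.0191). Slc2a3, a glucose transporter, fell to 137 and 183 CPM in tumour, against 730.0 CPM in normal (log2 change -2.66, SE 0.45, adjusted p = 0.0241). Hk3, the hexokinase of myeloid cells, fell to 27.7 and 28.3 CPM in tumour, against 133 CPM in normal (log2 change -2.72, adjusted p = 0.0243). Hilpda, a hypoxia-induced lipid droplet protein, stood at 52.5 and 31.5 CPM in tumour against 0 CPM in normal and did not pass (adjusted p = 0.051).

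The list of tumour neutrophil and suppressor genes holds genes linked to neutrophils that restrain immunity in tumours. Of its 20 tested members 2 rose and 1 fell, with a median log2 change of 1.60, or 0.81 with the 2 genes at 0 in normal set to their bounds. Tgm2, transglutaminase 2, stood at 127 and 95.3 CPM in tumour against 4.83 CPM in normal, a count ratio of 22, with a 95% interval of 6.02 to 183 (adjusted p = 0.034, edgeR). Cd14, a co-receptor for bacterial lipopolysaccharide, stood at 338 and 160.0 CPM in tumour against 14.5 CPM in normal (log2 change 3.58, SE 0.74, adjusted p = 0.04). After thinning, Cd14 was detected in 29.1% and 13.6% of tumour members against 1.81% of normal members. In thinned microglia its shares were 14.6% and 13.4% in tumour and 24.2% in normal. The part of microglial RNA in the rise of Cd14 was not tested. Jaml, a junctional adhesion molecule of migrating leukocytes, fell to 146 and 234 CPM in tumour, against 686 CPM in normal (log2 change -2.32, adjusted p = 0.0397), a call lost with library-size scaling (adjusted p = 0.0528). Others of this list did not pass: Cd274, which encodes PD-L1, stood at 21.9 and 23.4 CPM in tumour against 16.9 CPM in normal. Siglecf, a marker of aged tumour neutrophils in mouse lung, stood at 39.4 and 119.6 CPM in tumour against 12.1 CPM in normal. Both were named after their values were seen.

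Several genes of secondary and tertiary granules were lower in tumour. Of 15 tested members outside the rule 7 fell, 1 rose and 7 did not pass, with a median log2 change of -1.89. Mmp8, neutrophil collagenase (chromosome 9, 7558456 to 7568485, plus strand), fell to 497 and 366 CPM in tumour, against 5364 CPM in normal (edgeR log2 change -4.13, SE 0.44, adjusted p = 0.00605). Lyz2, lysozyme, fell to 595 and 1255 CPM in tumour, against 6277 CPM in normal (log2 change -3.23, SE 0.53, adjusted p = 0.0222), with -2.75 without tumour 1 and -3.97 without tumour 2. Both tumour libraries lay far below normal in both genes.

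Mmp9, gelatinase B, stood at 745 and 792 CPM in tumour against 2282 CPM in normal (log2 change -2.05, adjusted p = 0.0397, edgeR). Cd177, a surface glycoprotein of granule origin, stood at 99.1 and 68.7 CPM in tumour against 256 CPM in normal (log2 change -2.11, adjusted p = 0.0442). Mmp25, a membrane-bound protease, stood at 39.4 and 52.5 CPM in tumour against 162 CPM in normal (log2 change -2.28, adjusted p = 0.0395). The calls of these 3 were lost with library-size scaling, at adjusted p = 0.0511, 0.0678 and 0.0599. Olfm4, a granule glycoprotein of a neutrophil subset, stood at 36.4 and 30.7 CPM in tumour against 155 CPM in normal (log2 change -2.69, adjusted p = 0.0241). Ceacam10, a small secreted CEA family member, stood at 33.5 and 32.3 CPM in tumour against 143 CPM in normal (log2 change -2.59, adjusted p = 0.0245).

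The one granule list member that rose was Chil3. It encodes the secreted chitinase-like protein Ym1 (chromosome 3, 106147554 to 106167564, minus strand) and stood at 2325 and 1192 CPM in tumour against 84.6 CPM in normal (edgeR log2 change 3.87, SE 0.64, adjusted p = 0.0227). Chil3 was detected in 74% and 44.9% of tumour members against 7.83% of normal members after thinning, and Mmp8 in 29.1% and 16.9% of tumour members against 86.7% of normal members, so these granule genes went opposite ways in the same populations. In thinned microglia Chil3 was found in 0.377% and 0.393% in tumour and 1.80% in normal, and Mmp8 in 0.189% and 0.166% in tumour and 0.817% in normal. Serpinb1a, an inhibitor of neutrophil serine proteases, was the 1 of 4 azurophil and precursor genes to fall, at 5.83 and 14.5 CPM in tumour against 74.9 CPM in normal (log2 change -3.24, adjusted p = 0.0342). It stood at -2.74 without tumour 1 and -4.04 without tumour 2, and its call was lost with library-size scaling (adjusted p = 0.0513) and at 1000 UMIs (adjusted p = 0.076).

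Of 6 calcium-binding cytosol proteins other than the alarmins 1 fell and none rose, with a median log2 change of -1.55. Anxa1, annexin A1, which limits neutrophil adhesion to vessel walls, fell to 305 and 302 CPM in tumour, against 1146 CPM in normal (edgeR log2 change -2.40, SE 0.43, adjusted p = 0.025). S100a6 stood at 2245 and 3076 CPM in tumour against 7375 CPM in normal and did not pass (log2 change -1.95, adjusted p = 0.0506).

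Some receptors that guide neutrophils out of vessels were also lower. Of 18 chemoattractant and adhesion receptors outside the rule 5 fell, 1 rose and 12 did not pass, with a median log2 change of -1.01. Fpr1 stood at 75.8 and 93.7 CPM in tumour against 348 CPM in normal (log2 change -2.51, adjusted p = 0.025, edgeR) and Fpr2 at 204 and 159 CPM in tumour against 749 CPM in normal (log2 change -2.54, adjusted p = 0.0243), both receptors for formylated peptides of bacteria and mitochondria. Itgb2, the shared chain of the beta2 integrins, stood at 206 and 314 CPM in tumour against 943 CPM in normal (log2 change -2.33, adjusted p = 0.0373). Ceacam1, an inhibitory adhesion molecule, stood at 16 and 17.8 CPM in tumour against 102 CPM in normal (log2 change -3.04, adjusted p = 0.0213). Ccrl2, which presents the attractant chemerin, rose, at 160.4 and 195 CPM in tumour against 9.67 CPM in normal (log2 change 3.71, SE 0.69, adjusted p = 0.0293).

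Of 17 pattern and Fc receptors 1 rose, Cd14 above, and 1 fell, with a median log2 change of -0.47, which is 0.00423 with library-size scaling. Ly6g, the surface antigen by which mouse neutrophils are sorted, fell to 20.4 and 43.6 CPM in tumour, against 307 CPM in normal (edgeR log2 change -3.68, SE 0.53, adjusted p = 0.0169), with -3.23 without tumour 1 and -4.42 without tumour 2. After thinning it was detected in 2.24% and 2.27% of tumour members against 23.5% of normal members, and in microglia in 0% and 0.0207% in tumour and 0% in normal. Fcgr2b, the inhibitory IgG receptor, stood at 75.8 and 75.1 CPM in tumour against 12.1 CPM in normal and did not pass (adjusted p = 0.0967).

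The interferon response held the lowest median of the 19 neutrophil lists, -3.36 on the log2 scale beside 0.18 over all genes, and 9 of 19 tested genes fell while none rose. With library-size scaling 7 fell, and Ifitm2 rose (adjusted p = 0.0448, edgeR). Rsad2, which encodes the antiviral protein viperin (chromosome 12, 26442746 to 26456452, minus strand), fell to 17.5 and 10.5 CPM in tumour, against 266 CPM in normal (edgeR log2 change -4.77, SE 0.50, adjusted p = 0.00605). Cmpk2, a nucleotide kinase encoded beside Rsad2, fell to 5.83 and 6.46 CPM in tumour, against 133 CPM in normal (log2 change -4.86, adjusted p = 0.00605). Ifit1, which binds viral RNA (chromosome 19, 34640871 to 34650009, plus strand), fell to 5.83 and 4.85 CPM in tumour, against 89.4 CPM in normal (log2 change -4.53, adjusted p = 0.0094). All 3 were low in both tumour libraries, at 17.5 CPM or less.

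Ifi204, a DNA sensor, stood at 19 and 17.8 CPM in tumour against 191 CPM in normal (log2 change -3.85, adjusted p = 0.0079, edgeR), and the growth-regulating schlafens Slfn4 at 49.6 and 88.9 CPM in tumour against 519.7 CPM in normal (log2 change -3.36, adjusted p = 0.018) and Slfn5 at 10.2 and 29.9 CPM in tumour against 172 CPM in normal (log2 change -3.48, adjusted p = 0.0243). Slfn5 changed by -2.92 without tumour 1 and -4.51 without tumour 2. Rtp4, an interferon-induced chaperone of membrane receptors, stood at 2.92 and 21 CPM in tumour against 164 CPM in normal (log2 change -4.08, adjusted p = 0.025), with -3.36 without tumour 1 and -5.96 without tumour 2, and DESeq2 did not call it (adjusted p = 0.149). Oasl2, an antiviral synthetase relative, stood at 30.6 and 75.9 CPM in tumour against 266 CPM in normal (log2 change -2.74, adjusted p = 0.0395), with -2.23 without tumour 1 and -3.65 without tumour 2. Ifitm3, which blocks virus entry, stood at 194 and 264 CPM in tumour against 730.0 CPM in normal (log2 change -2.14, adjusted p = 0.0431). The calls of Oasl2 and Ifitm3 were lost with library-size scaling, at adjusted p = 0.0549 and 0.056.

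The fall did not cover the whole list. Named after their values were seen, Isg15, a ubiquitin-like protein, stood at 58.3 and 44.4 CPM in tumour against 53.2 CPM in normal (adjusted p = 0.539, edgeR), Ifitm1 at 733 and 1710.2 CPM in tumour against 210.3 CPM in normal (adjusted p = 0.107) and Ifitm2 at 1929 and 2241 CPM in tumour against 529 CPM in normal (adjusted p = 0.113). Summed per thinned barcode over the 23 genes of the list, the median was 4 and 5 UMIs in tumour against 3 in normal, so the sum, which the abundant Ifitm genes feed, was not lower in tumour. Rsad2 was detected in 1.35% and 1.26% of tumour members against 17.5% of normal members, and Slfn4 in 3.14% and 9.34% of tumour members against 32.5% of normal members, with 0.674% and 0.910% in tumour and 0.163% in normal of microglia for Rsad2 and 0.0270% and 0.0207% in tumour and 0.163% in normal for Slfn4. Among the 10 largest falls of all genes were further interferon-induced ones outside the list. Ddx60, an RNA helicase of antiviral sensing, fell to 14.6 and 16.2 CPM in tumour, against 338 CPM in normal (log2 change -4.91, SE 0.48, adjusted p = 0.00605). Ifi27l2a, an interferon-induced mitochondrial protein, fell to 11.7 and 50.1 CPM in tumour, against 708 CPM in normal (log2 change -4.90, adjusted p = 0.0149), and changed by -4.23 without tumour 1 and -6.38 without tumour 2. Ifit1bl2, a relative of Ifit1, stood at 0 and 8.89 CPM in tumour against 111 CPM in normal (log2 change -4.81, adjusted p = 0.0245), with -3.98 without tumour 1 and -7.33 without tumour 2, and DESeq2 did not call it (adjusted p = 0.453).

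Interferon drives such genes through a promoter element, the interferon-stimulated response element, whose core is GAAA, any 2 bases, GAAA. RefSeq promoters on GRCm38.p6 were at hand for 7 of the 9 fallen genes, and 3 of the 7, Rsad2, Ifit1 and Slfn5, held the core on either strand within 250 bases before the start. Over all promoters 978 of 32851 held it, 2.98%. The 3 promoters are shown because they carry the element in the genes that fell, with the core in capitals, for Ifit1 at chr19:34640749-34640868 (plus strand), Rsad2 at chr12:26456508-26456627 (minus strand) and Slfn5 at chr11:82951892-82952011 (plus strand).

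Ifit1: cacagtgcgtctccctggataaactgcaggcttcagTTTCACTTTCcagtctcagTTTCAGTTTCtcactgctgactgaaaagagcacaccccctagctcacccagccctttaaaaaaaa
Rsad2: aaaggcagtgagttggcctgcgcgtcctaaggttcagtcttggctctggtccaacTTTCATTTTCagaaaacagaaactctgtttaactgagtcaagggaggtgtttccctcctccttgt
Slfn5: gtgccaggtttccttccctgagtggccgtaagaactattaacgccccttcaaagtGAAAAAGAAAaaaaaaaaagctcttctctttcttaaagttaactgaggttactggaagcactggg

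Ifit1 held 2 copies, 104 and 85 bases before its start, Rsad2 held 1 at 120 bases and Slfn5 held 1 at 155 bases. In Ifit1 and Rsad2 the capitals show the reverse complement of the core. The other 4, Cmpk2, Slfn4, Oasl2 and Ifitm3, had no such letters in the window, which says nothing of whether interferon acts on them.

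The machinery of oxidative burst and of extracellular traps was changed in single members. Cybb, the catalytic membrane subunit of the NADPH oxidase (chromosome X, 9435252 to 9487771, minus strand), fell to 55.4 and 58.2 CPM in tumour, against 580.1 CPM in normal (edgeR log2 change -3.83, SE 0.44, adjusted p = 0.00681), and was the 1 of 7 oxidase genes to do so (median log2 change -0.64). It was detected in 5.83% and 4.04% of tumour members against 38.6% of normal members after thinning, and in microglia, which also use it, in 7.95% and 14.7% in tumour and 2.61% in normal. Rac2, the small GTPase of the complex, stood at 372 and 816 CPM in tumour against 809.7 CPM in normal and did not pass. Of 13 genes of extracellular traps and actin 2 fell, with a median log2 change of -0.81. Padi4, which citrullinates histones, stood at 24.8 and 53.3 CPM in tumour against 208 CPM in normal (log2 change -2.84, adjusted p = 0.032), with -2.38 without tumour 1 and -3.59 without tumour 2, and Itgb2l, an integrin beta2-like chain, at 4.37 and 8.08 CPM in tumour against 123 CPM in normal (log2 change -4.67, adjusted p = 0.0079).

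The remaining large falls lay outside the lists. Adpgk, an ADP-dependent glucokinase, fell to 13.1 and 23.4 CPM in tumour, against 433 CPM in normal (edgeR log2 change -4.98, SE 0.52, adjusted p = 0.00605). Mgam, a maltase, stood at 5.83 and 12.9 CPM in tumour against 159.5 CPM in normal (log2 change -4.45, adjusted p = 0.0094), with -3.99 without tumour 1 and -5.12 without tumour 2, and the unnamed E230014E18Rik at 1.46 and 2.42 CPM in tumour against 50.8 CPM in normal (log2 change -4.99, adjusted p = 0.0234).

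In 5 lists no gene passed with TMM scaling. With library-size scaling Il4ra (adjusted p = 0.0437, edgeR), Runx1 (0.0497) and Fth1 (0.0322) of these lists passed. Over all 8558 genes tested, 1930 had an unadjusted p under 0.05 (edgeR, TMM), which is the background for the counts at that level below. Of 14 cytokine receptors outside the rule 2 were higher and none lower at an unadjusted p under 0.05 (median log2 change 0.57), with Il4ra, the interleukin-4 receptor, at 188 and 273 CPM in tumour against 36.3 CPM in normal (adjusted p = 0.076, edgeR). Of 17 transcription factors of neutrophil maturation 1 was higher and 1 lower at that level, with a median of -0.28 that turned to 0.19 with library-size scaling, and Runx1 stood at 233 and 271 CPM in tumour against 55.6 CPM in normal (adjusted p = 0.104). Of 9 iron genes 1 was higher and 1 lower (median 0.45), with Fth1, the ferritin heavy chain, at 14839.9 and 13628 CPM in tumour against 2598 CPM in normal (log2 change 1.97, adjusted p = 0.0539). Of 14 cell cycle genes 7 were higher and 1 lower (median 1.95, or 1.73 with the 2 genes at 0 in normal set to their bounds), with Tubb5, a tubulin, at 207 and 139.8 CPM in tumour against 31.4 CPM in normal and Pcna, the replication clamp, at 74.3 and 52.5 CPM in tumour against 7.25 CPM in normal, a count ratio of 8.32, with a 95% interval of 2.78 to 40.9. The fifth list was the NF-kappaB response given above.

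**Figure D3:**
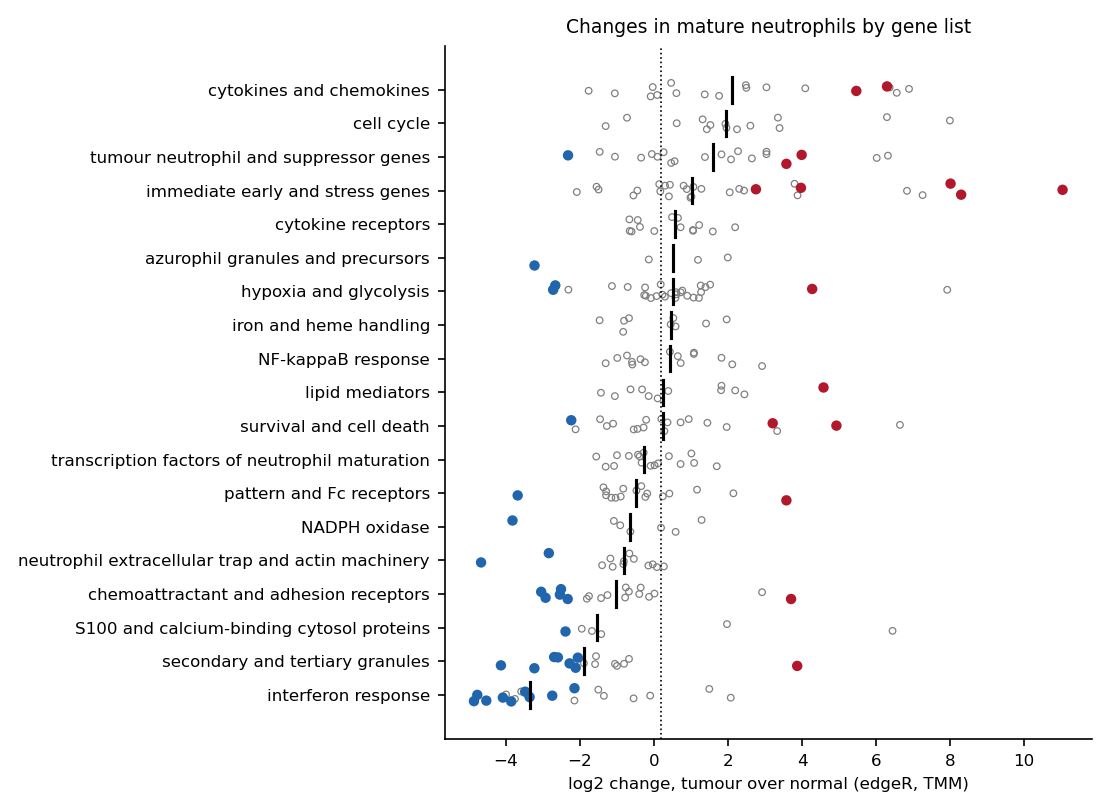
Log2 change in tumour over normal (edgeR, TMM scaling) of each tested gene in the 19 neutrophil gene lists, with genes that passed in red (higher) or blue (lower), others as open circles, list medians as black bars and the median of all genes, 0.18, as a dotted line. The interferon response lies lowest (median -3.36), followed by granules (-1.89). Cytokines and chemokines have a median of 2.12 and cell cycle genes of 1.95, or of 1.26 and 1.73 with genes at 0 in normal set to their bounds.

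RNA of other cells was present in the mature neutrophil barcodes and was not level between the groups. The 13 microglia markers summed to 2758 and 4669 CPM in tumour against 998 CPM in normal, with none at 0. None of the 13 passed the test (3 higher at an unadjusted p under 0.05, median log2 change 1.08). Over all 8558 genes tested, 1930 had an unadjusted p under 0.05 (edgeR). The 13 markers of the glioma line and oligodendrocyte progenitors summed to 2952 and 857 CPM in tumour against 179 CPM in normal, where Pdgfra, Sox10, C1ql1, Cspg4 and Neu4 were at 0. Of 12 tested, Pdgfra (411 and 96.9 CPM in tumour against 0 CPM in normal, at least 35-fold, or 13.4-fold on tumour 2 alone) and Vcan (398 and 116 against 4.83 CPM) rose, with a median of 4.81, or 3.52 with the 4 genes at 0 in normal set to their bounds. Pdgfra was found in 21.1% and 4.55% of thinned tumour members against 0 of 166 normal members, and in microglia in 7.85% and 2.94% in tumour and 0.163% in normal.

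Markers of other blood and brain cells were mostly low. Of 8 tested monocyte and macrophage genes Ly6c2, a surface antigen of monocytes that marrow neutrophils also carry, fell to 46.6 and 50.9 CPM in tumour, against 616 CPM in normal (log2 change -4.13, adjusted p = 0.00605, edgeR), and the list of 13 summed to 1847 and 3505 CPM in tumour against 1576 CPM in normal, with Ccr2 and H2-Aa at 0 in tumour 1 and F13a1 at 0 in normal. Erythroid markers summed to 356 and 124 CPM in tumour against 355 CPM in normal with 4 of 5 tested lower (Hbb-bs, Hba-a2, Hba-a1 and Hbb-bt, near-identical copies among which counts may be split). Neuron and astrocyte markers summed to 337 and 119 CPM in tumour against 665 CPM in normal with 3 of 5 lower (Gja1, Snap25 and Aqp4), and endothelial and mural markers to 40.8 and 131 against 283 with 1 of 5 lower (Acta2). Some of these calls were lost elsewhere, Hbb-bt with library-size scaling (adjusted p = 0.0549) and Snap25 and Aqp4 at 1000 UMIs (adjusted p = 0.0802 and 0.076). B cell markers summed to 59.8 and 116 CPM in tumour against 174 CPM in normal with none of 3 tested past the threshold, and Cd79a was at 0 in tumour 1 and in normal. T and NK markers summed to 20.4 and 6.46 against 24.2 with Cd3e at 0 in all 3 libraries, and eosinophil, basophil and mast cell markers to 39.4 and 123 against 19.3, with Epx, Mcpt8, Cpa3 and Fcer1a likewise at 0. In the last 2 lists 1 gene each was tested and did not pass.

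The members were therefore restricted, after the data had been seen, to those with under 10 UMIs of C1qa, C1qb and C1qc per 10000 and no UMI of 6 glioma genes. Microglia markers then summed to 836 and 1048 CPM in tumour against 221 CPM in normal, so they stayed higher in tumour. Glioma line markers summed to 367 and 169 against 56.7. The 6 glioma genes are among the 13 line markers and stand at 0 by this choice, so the lower glioma sum is no check. In these 80 and 212 tumour members the log2 change of Cxcl2 was 6.71, of Il1b 2.70, of Chil3 4.06, of Mmp8 -3.48, of Cybb -3.54 and of Rsad2 -4.70. Restricted instead to 1500 to 3500 UMIs, the changes were 6.25, 3.41, 4.10, -4.01, -4.20 and -4.98 in the same order. Of the genes called in all members and tested in the restricted ones, 214 of 218 passed again without C1q and glioma UMIs and 209 of 214 at 1500 to 3500 UMIs, all with the same sign. The restricted members are subsets of the same barcodes and libraries, so passing again is not separate evidence. The part of other cells' RNA in the remaining genes was not tested.

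Ribosomal protein genes took a larger share of the transcripts in tumour. They made up 9.11% and 8.47% of UMIs in tumour members against 2.64% in normal members, and 9.62% and 9.17% against 3.46% with the alarmins left out. Of 83 tested, 9 rose and none fell, 81 had a positive log2 change, and the median was 1.58, or 2.07 with library-size scaling. The same share was higher in tumour in the other populations too: ribosomal genes made up 8.30% and 5.13% in tumour against 2.96% in normal in immature neutrophils, 28% and 27.6% against 16.4% in monocytes, and 18% and 19.2% against 6.55% in microglia.

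Because S100a8 and S100a9 differed so much, members without doublet calls were cut into tertiles of their alarmin level within each library. The high tertile of tumour had a median of 1276 and 1450 per 10000, nearest to the 1579.9 of the low tertile of normal, so these can be set side by side, as a description of 72 and 128 tumour barcodes against 58 normal ones. In CPM of all other UMIs, Mmp8 stood at 1773 and 1159 CPM in the high tumour tertiles against 3161 CPM in the low normal tertile, Lyz2 at 1758 and 2679 against 5245 and Cybb at 143 and 107 against 523. Chil3 stood at 4142 and 1426 against 79, Cxcl2 at 3463 and 1049 against 0, Il1b at 6466 and 2121 against 1077 and Fth1 at 18447 and 15887 against 3803, and Rsad2 at 7.54 and 6.49 against 583 CPM. In all of these genes the order of tumour and normal was that of the whole sums.

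The order turned for Retnlg and the gap narrowed for Fpr1 near a matched alarmin level. Retnlg stood at 43315 and 24944 CPM in the high tumour tertiles against 11763 CPM in the low normal tertile, while over all members it was lower in tumour. Fpr1 stood at 158 and 240.3 against 277 CPM, a smaller gap than over all members. Within each library Retnlg, Mmp8, Lyz2 and Fpr1 were lower in the low tertile than in the high tertile, with ratios for Mmp8 of 0.0567 and 0.0125 in tumour and 0.295 in normal and for Retnlg of 0.0409 and 0.0473 in tumour and 0.257 in normal. Id2, a transcriptional inhibitor named after its values were seen, ran the other way, with low-over-high ratios of 1.94 and 2.39 in tumour and 1.42 in normal. In tumour the low tertile was also higher in Ptgs1 (ratios 5.04 and 3.35), Rgs1 (3.54 and 13.2), Siglecf (4.82 and 3.02) and Mif (4.22 and 2.10). These ratios share the gate's own genes as their axis and carry no test, and the genes shown were chosen with earlier results known.

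**Figure D4:**
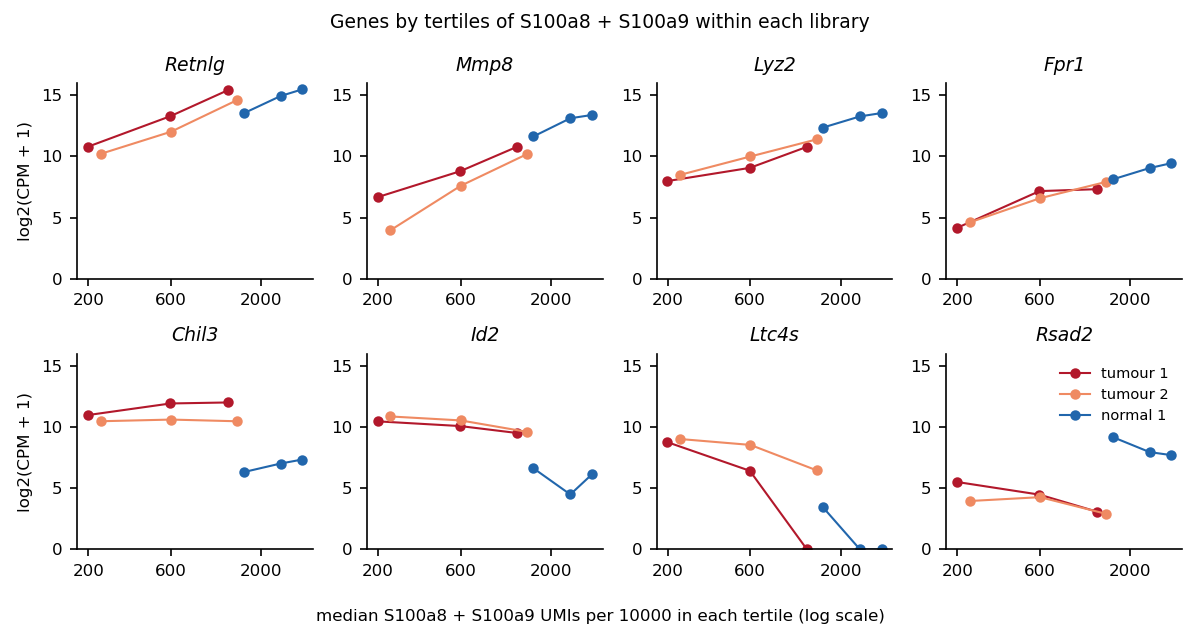
Level of 8 genes, as log2(CPM + 1) of UMIs other than the alarmins, in the low, middle and high tertile of each library by S100a8 and S100a9, against the median alarmin level of that tertile (log axis). Retnlg, Mmp8, Lyz2 and Fpr1 climb with the alarmins in every library. At like alarmin levels Chil3, Id2 and Retnlg are higher in tumour than in normal, and Rsad2, Mmp8, Lyz2 and Fpr1 are lower, Fpr1 by the least.

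The change of a gene between tumour and normal was then compared between mature neutrophils and 2 neighbouring populations of the same libraries, through the interaction term in edgeR. Against immature neutrophils, 95 of 8414 genes had a more positive change in mature ones (1.13%) and 127 a more negative one (1.51%), or 2.64% in either direction. The immature sums rest on 42 and 24 tumour barcodes against 349 normal ones, and the prior degrees of freedom of that fit were infinite, so its p-values rest on a spread pooled over genes. Against monocytes, 20 of 10996 genes had a more positive change in mature neutrophils (0.182%) and 39 a more negative one (0.355%), or 0.537% in either direction. The monocytes numbered 26 and 313 in tumour against 196 in normal, and their gate let through cells with the antigen presentation genes Cd74, H2-Aa and H2-Ab1.

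Chil3 rose in mature neutrophils, while in both neighbours tumour stood level with or below normal. Immature neutrophils had 6834 and 8085 CPM in tumour against 8206 CPM in normal, so the change was more positive by 4.35 in mature neutrophils (SE 0.49, adjusted p = 1.07e-14, edgeR). Monocytes had 1522 and 655 CPM in tumour against 1857 CPM in normal, a difference of 4.58 (SE 0.62, adjusted p = 1.39e-05). Normal mature neutrophils thus stood far below normal immature ones in Chil3, and tumour members lay between them.

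Mmp8 and Cybb had a more negative change in mature than in immature neutrophils. Mmp8 in immature neutrophils stood at 2239 and 1893 CPM in tumour against 3806 CPM in normal (difference -2.86, adjusted p = 2.15e-09, edgeR) and Cybb at 1186 and 1371 CPM in tumour against 2460.3 CPM in normal (-2.51, adjusted p = 3.94e-07). Retnlg, which was lower in tumour in mature neutrophils, stood at 10936 and 10045 CPM in tumour against 4963 CPM in normal in immature ones (difference -2.26, adjusted p = 0.000219). Cmpk2 (-2.81, adjusted p = 0.00995) and Ddx60 (-3.42, adjusted p = 8.87e-05) also had a more negative change in mature neutrophils, while Rsad2 (-2.36, adjusted p = 0.182) and Ifit1 (-3.97, adjusted p = 0.154) did not pass.

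The higher levels of early genes were not shown to be particular to mature neutrophils. Jun stood at 82.9 and 59.3 CPM in tumour against 12.6 CPM in normal in immature neutrophils and at 327 and 319 CPM in tumour against 33.1 CPM in normal in monocytes, and its differences did not pass (0.66, adjusted p = 0.773, and -0.65, adjusted p = 0.809, edgeR). Egr1 did pass against immature neutrophils, which had 25.5 and 7.90 CPM in tumour against 2.02 CPM in normal, with a difference of 8.26 (adjusted p = 0.0202), a fitted value that depends on the prior count since normal mature neutrophils held none. That call was lost at 1000 UMIs per barcode. Cxcl2 (2.81, adjusted p = 0.695) and Il1b (2.23, adjusted p = 0.181) did not pass against immature neutrophils. Those held only 6 and 0 UMIs of Cxcl2 in tumour against 1 in normal. Of Il1b they held 4 and 0 UMIs in tumour against 8 in normal. Such counts are too few to decide whether the change differed for either gene. Against monocytes, Il1b, which was at 114 and 79.7 CPM in tumour against 0 CPM in normal there, had a more negative change in mature neutrophils (-7.67, adjusted p = 0.00243). That size too is fitted against a level of 0, and in CPM mature neutrophils of every library held the most Il1b of the 3 populations.

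**Figure D5:**
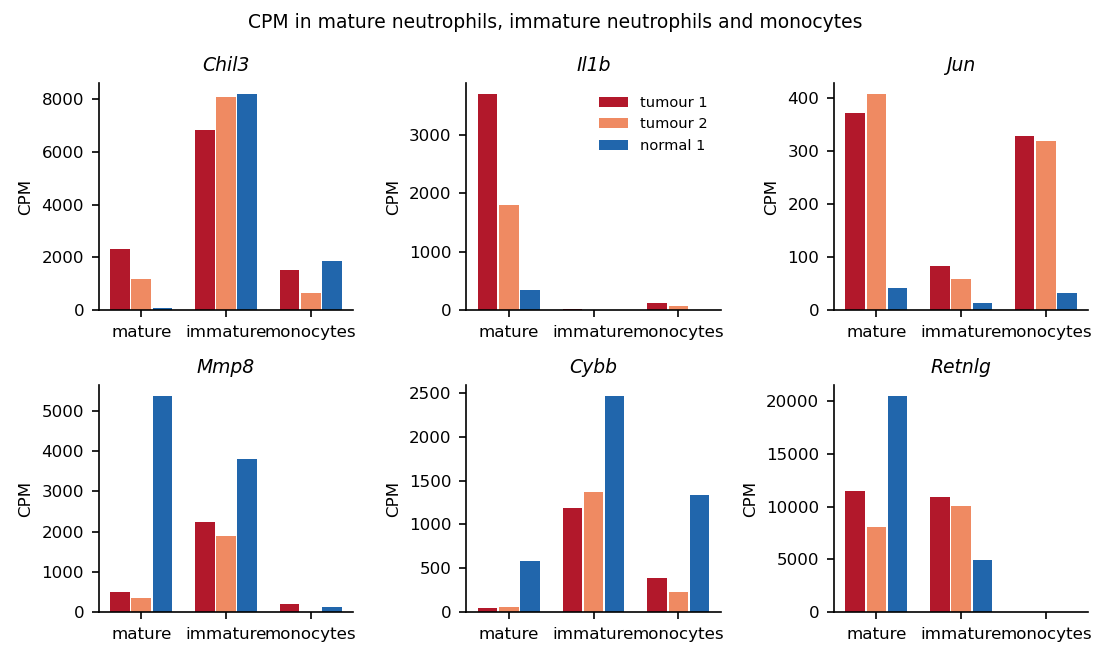
CPM of 6 genes in mature neutrophils, immature neutrophils and monocytes of tumour 1, tumour 2 and normal 1, 1 bar per summed population and library, with axes from 0. Chil3 is near 0 only in normal mature neutrophils, Il1b is highest in mature neutrophils of tumour, Mmp8 and Cybb are highest in normal in each population except Mmp8 in monocytes, and Retnlg is highest in normal in mature neutrophils and in tumour in immature ones.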

How the data were processed

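The authors deposited filtered matrices of UMI counts, 1 per library with 32285 features, which Cell Ranger 6.1.2 made per the file headers, with mm10 as genome build per the submitters' processing notes. Libraries were made with droplet-based Chromium chemistry that captures 3′ ends, per the labels' protocols.

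From these counts barcodes were kept and classified as the report states, in Python 3.11.15 (scanpy 1.11.5 with Scrublet at an expected doublet rate of 8%, scipy 1.17.1). Immature neutrophils passed the alarmin limit with Ngp, Camp and Ltf at or above 50 per 10000. Precursors had Elane, Mpo, Prtn3 and Ctsg at or above 15 per 10000 with at least 3 UMIs. Monocytes had at least 3 UMIs of Ly6c2, Ccr2 and F13a1 together and fell short of the other limits, with C1q genes below 10 per 10000, and microglia had C1q genes at or above 20 per 10000, at least 2 UMIs of P2ry12, Tmem119, Sall1 and Cx3cr1 together and alarmins below the limit. Counts were summed per library and population and fitted with edgeR 4.0.16 (R 4.3.3; filterByExpr, TMM, glmQLFit and glmQLFTest, Benjamini-Hochberg), on tumour 1 and tumour 2 against normal 1, and with population by condition terms for the differences between populations. The prior degrees of freedom were 8.342 in the mature neutrophil fit. DESeq2 1.42.0, library-size scaling, thinning to 1000 UMIs, other limits, removal of doublets and leaving out each tumour library were the alternatives. Counts were also simulated from the mean levels and totals of these libraries, with the same fixed dispersion for every gene. On them, with 8217 genes tested, the fit recovered 18.1% of 94 genes changed 2-fold and 68.6% of 86 changed 4-fold. It made 9 false calls among 85. The dispersion was not estimated from the data, so these rates need not hold for genes that differed widely between the tumour libraries.

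Named genes were the genes of the rule and markers, up to 4 members of each list with the smallest adjusted p plus those needed to name small counts, the 10 largest rises and falls past the threshold (both tumour libraries on 1 side of normal, outside the rule, at least 50 CPM in every library of the higher group and above the other barcodes there), and the 5 largest of each sign per difference between populations. Positions come from GENCODE M21 for 32158 of 32285 IDs, and promoters from RefSeq on GRCm38.p6. The members, lists and genes followed were chosen with earlier results of these data known. The smallest p an exact permutation allows here is 0.333, and no columns of other series were present. Some genes are not reported here.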

Additional observations from a re-analysis of the deposited data

Results flagged for a closer look

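These genes differed between mature neutrophils and another population in their change in tumour relative to normal, by the test of the difference itself (edgeR interaction term, adjusted p below 0.05). All values are log2 changes in mature neutrophils minus those in the other population, and no explanation was tested.

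Against immature neutrophils the difference for Chil3 was 4.35, as described above. For Tgm2 it was 8.60 (adjusted p = 0.011, edgeR), with 0 and 0 CPM in tumour against 2.53 CPM in normal in immature neutrophils. For Entpd3, an ectonucleotidase, it was 8.46 (adjusted p = 0.0143), with mature neutrophils at 97.7 and 109.9 CPM in tumour against 4.83 CPM in normal and immature ones at 0 and 0 CPM in tumour against 2.53 CPM in normal. For Egr1 it was 8.26 (adjusted p = 0.0202). The sizes for Tgm2, Entpd3 and Egr1 are fitted against levels at or near 0, and with 1000 UMIs per barcode their calls were lost (adjusted p = 0.72, 0.75 and 1). For the unnamed E230032D23Rik it was 3.80 (adjusted p = 0.0283), with mature neutrophils at 118 and 99.4 CPM in tumour against 7.25 CPM in normal and immature ones at 6.38 and 7.90 CPM in tumour against 7.08 CPM in normal.

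On the negative side, the difference was -8.28 for H2-Ab1, an antigen presentation gene (adjusted p = 0.00869, edgeR), which stood at 8.75 and 25.9 CPM in tumour against 74.9 CPM in normal in mature and at 0 and 15.8 CPM in tumour against 0 CPM in normal in immature neutrophils. The immature level in tumour 2 is 4 UMIs, so the size for H2-Ab1 is fitted against levels at or near 0. For Cstdc5, a stefin, it was -5.98 (adjusted p = 2.18e-14), with 62.7 and 47.7 CPM in tumour against 138 CPM in normal in mature and 115 and 83 CPM in tumour against 4.05 CPM in normal in immature neutrophils. For Acta2, smooth muscle actin, it was -4.84 (adjusted p = 6.52e-07), with 2.92 and 12.9 CPM in tumour against 140.2 CPM in normal in mature and 60.6 and 0 CPM in tumour against 15.7 CPM in normal in immature neutrophils, where 19 UMIs in tumour 1 make up the tumour level. For Myl2, a muscle myosin chain, it was -4.35 (adjusted p = 0.0155), with 10.2 and 16.2 CPM in tumour against 70.1 CPM in normal in mature and 22.3 and 7.90 CPM in tumour against 4.05 CPM in normal in immature neutrophils. Those immature levels of Myl2 are 7 and 2 UMIs in tumour against 8 in normal. For Itgb2l it was -3.88 (adjusted p = 1.59e-09), with 268 and 328 CPM in tumour against 411 CPM in normal in immature neutrophils. At 1000 UMIs per barcode the calls of E230032D23Rik (adjusted p = 0.905), Acta2 (0.979), Myl2 (0.818) and Itgb2l (0.0534) were lost too.

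Against monocytes the difference for Chil3 was 4.58. For Wfdc17, a secreted protease inhibitor relative, it was 3.26 (adjusted p = 0.00409, edgeR), with 918 and 2519 CPM in tumour against 295 CPM in normal in mature neutrophils and 136 and 179.8 CPM in tumour against 426 CPM in normal in monocytes. For Pnp, a purine salvage enzyme, it was 3.22 (adjusted p = 0.0243), with 67.1 and 112 CPM in tumour against 16.9 CPM in normal in mature neutrophils and 55.2 and 133 CPM in tumour against 243 CPM in normal in monocytes. The calls of both were lost with doublets removed (adjusted p = 0.187 and 0.202).

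For Thbs1, thrombospondin, the difference was -7.59 (adjusted p = 4.52e-08, edgeR), with 51 and 8.89 CPM in tumour against 149.9 CPM in normal in mature neutrophils and 261 and 43.8 CPM in tumour against 5.94 CPM in normal in monocytes. For Actn1, an actin crosslinker, it was -5.39 (adjusted p = 6.36e-06), with 178 and 189 CPM in tumour against 667 CPM in normal in mature neutrophils and 99.3 and 85.5 CPM in tumour against 11.9 CPM in normal in monocytes. The antigen presentation genes H2-Eb1, H2-Aa and H2-Ab1 differed by -7.32, -7.19 and -6.64. Among monocytes H2-Ab1 stood at 2431 and 4804 CPM in tumour against 242 CPM in normal, so the monocyte gate held far more of these transcripts in tumour. With library-size scaling H2-Eb1 and H2-Aa both had an adjusted p of 0.0539 (edgeR). DESeq2 did not call them (adjusted p = 0.11 and 0.385), and the call of H2-Ab1 was lost at 1000 UMIs per barcode (0.125, edgeR).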

How the results depend on the processing

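The 230 genes called in mature neutrophils, genes of the selection rule included, kept their sign under every alternative in which they were tested. Of 76 called genes picked by the naming rule, 57 stayed past the threshold in every setting that gave them an adjusted p. Not every setting did so: DESeq2 kept 62 and lost 3 of the 76, and the rest had no adjusted p there. The number of calls moved more than the calls themselves. Higher and lower counts were 168 and 326 with DESeq2 size factors, 228 and 104 with library size alone, 474 and 360 with no filter on low counts, 341 and 411 at 1000 UMIs per barcode, 339 and 383 with at least 1000 UMIs, 376 and 409 with at most 10% mitochondrial UMIs, 425 and 418 with at least 3 receptor UMIs, 296 and 359 with Ngp, Camp and Ltf below 20, and 666 and 710 with doublets removed. DESeq2 called 118 higher. Of the settings added after the data had been seen, an alarmin limit of 10 gave 721 and 733, 1500 to 3500 UMIs 643 and 631, and members without C1q and glioma UMIs 442 and 558. Library size alone kept 160 of the 230 calls, DESeq2 177 of 192 tested, thinning 188 of 204 and removal of doublets 222 of 225. The causes were not tested.

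Differences from immature neutrophils numbered 193 lower with DESeq2 size factors, 6 and 35 with DESeq2, 52 and 60 with library size, 29 and 41 with no filter, and 22 and 20 at 1000 UMIs. Those from monocytes numbered 78 and 125, 4 and 15, 2 and 5, and 81 and 75 in the same order, 1 and 9 with doublets removed, and 11 lower at 1000 UMIs. Library-size scaling moved the median difference from monocytes over all genes to 0.72, against 0.16 with TMM. The share of mature neutrophils was 2.69% in tumour 1 and 4.84% in tumour 2 with an alarmin limit of 10, 3.72% in tumour 2 at 1000 UMIs, and 4.95% in normal with Ngp, Camp and Ltf below 20. Of all differences called, 196 of 202 tested kept their sign at 1000 UMIs (immature) and 56 of 57 with doublets removed (monocytes). Among genes named here, reversed values were Igkc at -4.15 with an alarmin limit of 10 (0.61 in the main result, not called) and the Acta2 difference from immature neutrophils at 1.42 with thinning (-4.84 in the main result). Leaving out a tumour library left no residual degrees of freedom and gave values only. No paired analysis was possible because the normal group holds 1 library, so the groups share fewer than 2 replicate numbers. With 1 normal library of 184 mature neutrophils, genes below about 3 counts there (7.25 CPM) have no lower limit.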

Other observations

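Cxcl2 and Mmp8 were found together, at 1000 UMIs each, in 14.8% and 2.02% of mature neutrophils in tumour against 0.602% in normal. Egr1 and Cxcl2 stood highest in tumour 1, whereas Igfbp6, Ltc4s and Wfdc17 stood highest in tumour 2, which also held the larger share of mature neutrophils.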
